A study of Mus musculus with 9 samples.

Results

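The genes described here are 9 members of the TALE homeobox family, Meis1, Meis2, Meis3, Pbx2, Pbx3, Pbx4, Pknox1, Pknox2 and Tgif1, out of 37980 mouse genes in the deposited table. They were taken by name as a set of Meis, Pbx and other TALE cofactors, and all 9 were found by their Ensembl identifiers. Further TALE genes are not described here. RNA was sequenced from myeloid progenitors (MPs, Lin-c-kit+Sca1-) of 2 groups, 4 NA MP samples and 5 WT MP samples, with 100000 sorted cells in each sample. NA stands for NUP98-HOXA10hd, a fusion of a part of the nucleoporin NUP98 with the homeodomain of HOXA10. NA mice carried a single copy of a loxP-stop-loxP NA cassette at Rosa26 (NA LSL/+) and Vav-Cre, whose Vav promoter acts throughout blood cells, on a C57BL/6 background, and recombined cells were Tdtomato+. For NA MPs, Tdtomato+ cells were taken from irradiated adult C57BL/6 mice that had received NA multipotent progenitors (MPPs) together with helper cells, and WT MPs were CD45.2+ and came from recipients of WT MPPs. The submitters give 3 months post-transplantation for both groups, and the methods of the study give 4 months. The study elsewhere uses CD45.2 for recipients and CD45.1 for WT donors, and the origin of the sorted WT MPs (donor, helper or recipient) therefore cannot be told from its text. Whether a sample held cells of a single mouse is not stated, so p-values measure the spread between samples, which may be technical.

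TALE proteins carry a homeodomain with extra residues in the loop between its first helices. Pbx proteins bind DNA together with Hox proteins and sharpen their choice of sites. Meis and Pknox (Prep) proteins bind Pbx through their amino-terminal part, bring it into the nucleus and join the complex on DNA, and Meis1 with HOXA9 is a known driver of myeloid leukaemia in mice. Tgif proteins are repressors that hold back retinoic acid and TGF-β responses. In blood, Meis1 and Pbx genes are known for upholding stem and progenitor cells.

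The third helix of the homeodomain, which lies in the major groove of DNA, reads the sequence of the site, so its coding sequence is shown for the 6 genes that were expressed, to compare the classes. Each stretch has 48 coding bases on the gene's own strand, read from the GENCODE M21 transcripts (GRCm38). Capitals mark the 18 bases from the tryptophan codon to the arginine codon of the motif by which the stretch was found, a motif that occurred once in each coding sequence.
Pbx3: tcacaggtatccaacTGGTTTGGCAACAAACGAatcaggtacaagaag
Pbx4: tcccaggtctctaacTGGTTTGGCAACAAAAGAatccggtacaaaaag
Pbx2: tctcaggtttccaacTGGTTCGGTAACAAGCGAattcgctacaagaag
Meis1: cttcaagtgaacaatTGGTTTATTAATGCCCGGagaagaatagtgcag
Pknox1: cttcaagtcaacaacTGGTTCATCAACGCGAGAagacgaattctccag
Tgif1: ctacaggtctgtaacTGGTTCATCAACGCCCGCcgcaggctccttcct
Pbx3 had the same base as Pbx4 at 42 of the 48 positions and the same as Pbx2 at 40. Against Meis1 it matched at 23 positions. Meis1 and Pknox1 matched at 36 positions, and Meis1 and Tgif1 at 28. Within the capitals Pbx3 and Pbx4 shared 17 of 18 bases, and Pbx3 and Meis1 shared 10. The stretch is coding sequence in every case and crosses an intron. That of Pbx3 lies in exons 5 and 6 of 9 on the minus strand (chr2:34178301-34204785), that of Pbx4 in exons 5 and 6 of 8 on the plus strand (chr8:69866598-69870070) and that of Pbx2 in exons 5 and 6 of 9 on the plus strand (chr17:34594712-34594842). The stretch of Meis1 lies in exons 9 and 10 of 12 on the minus strand (chr11:18885621-18905705), that of Pknox1 in exons 9 and 10 of 11 on the plus strand (chr17:31602846-31603217) and that of Tgif1 in exons 2 and 3 of 3 on the minus strand (chr17:70845231-70846177). No 50-base piece of the GENCODE M21 transcripts of Pbx3, Pbx4 or Tgif1 occurs in a transcript of another gene. A matching stretch of that length would therefore tell them from relatives, but the reads themselves were not examined.

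The values are RSEM counts per gene that had been divided by a size factor for each sample, and are called normalized counts below. Between 97.3% and 97.7% of the values above 0 in a sample were whole multiples of a single step, within 0.02 of a read, and the step was worth between 0.827 and 1.20 in different samples. Read back with that step, the samples held from 5557720 to 8106140 reads in genes. At this depth 3 reads, the limit that a count of 0 allows, correspond to between 2.48 and 3.60 normalized counts, counting error only. All 10 markers of myeloid progenitors on a list of cell type markers, among them Mpo, Elane, Kit and Cebpa, were detected in both groups. In the test described below, 5 of the 10, these named ones among them, did not pass an adjusted p of 0.05. Prtn3, Ctsg, Cd34 and Ms4a3 were higher in NA MPs, and Fcgr3 was lower, with a log2 fold change of -0.57. Of all tested genes, 34.3% were called. No 2 samples were alike within sampling noise: over the pairs of a group, chi-square divided by its degrees of freedom was 1.20 to 1.67 for WT MPs and 1.59 to 2.69 for NA MPs. Of the fusion partners, Hoxa10 had 129 ± 17.7 normalized counts in NA MPs (SD, n = 4) and 8.05 ± 2.57 in WT MPs (SD, n = 5), and Nup98 was between 839 and 1025 against 567 to 628. The table has no entry for the fusion, and any of its reads assigned to these genes cannot be separated from the others.

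In the comparison of NA MPs with WT MPs, Pbx3 rose 8.23-fold by its means, Pbx4 rose by 21.3% and Tgif1 by 20.7%, Pknox1 fell by 11.0%, and Meis1 and Pbx2 did not pass the test. Meis2, Meis3 and Pknox2 were at or near 0 in both groups. Of the 9 members, 6 had at least 10 normalized counts in 4 or more samples and entered the test, limma on log2(normalized count + 2) with Benjamini-Hochberg adjustment over 11987 genes. Of these 6, 3 were higher and 1 was lower in NA MPs at an adjusted p under 0.05, beside 34.3% of all tested genes that were called in either direction, 17.0% higher and 17.4% lower. Since about 1 tested gene in 3 was called, the count over 6 members is given as a description only. Over 2-fold, 1 member rose, beside 2.39% of all genes. The median log2 fold change of the 6 members was 0.17, and that of all tested genes was -0.0081, with the central 95% between -0.66 and 0.97. The groups did not overlap for 4 of the 6 members, beside 26.3% of all genes. In sorted bulk samples, a change in the share of a cell type and a change in RNA per cell cannot be told apart.

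Pbx3 (ENSMUSG00000038718, chr2:34171457-34373142, minus strand, GRCm38) encodes a Pbx protein known as a partner of HOXA9 and MEIS1 in leukaemia. It had 297, 285, 242 and 269 normalized counts in NA MP replicates 1 to 4 and 31.3, 40.2, 35.7, 27.0 and 31.7 in WT MP replicates 1 to 5. The lowest NA MP sample was far above the highest WT MP sample. The means were 273 ± 23.8 (SD, n = 4) and 33.2 ± 4.99 (SD, n = 5), a ratio of 8.23. The log2 fold change was 2.97 with a standard error of 0.11 and a 95% interval from 2.75 to 3.20 (adjusted p = 1.02e-25, limma). A pseudocount of 2 understates the change of low genes, and only 35 of the 11987 tested genes had a larger rise on this scale. The exact two-sided permutation test of single genes, run for the 6 tested members over all ways to choose 4 of 9 samples, gave p = 0.0159 for Pbx3, the smallest it can give here.

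Pbx4 (ENSMUSG00000031860, chr8:69832491-69872292, plus strand) encodes a Pbx protein best known from testis. NA MPs had 157, 132, 129 and 138 normalized counts in replicates 1 to 4, and WT MPs had 126.3, 115, 124, 96.1 and 112 in replicates 1 to 5. The groups did not overlap, but the lowest NA MP sample was only slightly above the highest WT MP sample. The means were 139 ± 12.6 (SD, n = 4) and 115 ± 12.1 (SD, n = 5), and the log2 fold change was 0.28 (standard error 0.092, adjusted p = 0.0157, limma), a rise of 21.3% with a 95% interval from 6.68% to 37.9%. The exact permutation p was 0.0159. The call was lost without NA MP replicate 1 (log2 fold change 0.22, adjusted p = 0.0821), without WT MP replicate 4 (0.22, adjusted p = 0.0687) and with a correction for GC content and gene length (0.16, adjusted p = 0.186), all from limma.

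Pbx2 (ENSMUSG00000034673, chr17:34591266-34597400, plus strand) encodes a Pbx protein found in most tissues. Its normalized counts were 489, 430, 439 and 468 in NA MP replicates 1 to 4 and 394, 402, 464, 447 and 460 in WT MP replicates 1 to 5. The groups overlapped, with only WT MP replicates 1 and 2 below every NA MP sample. The log2 fold change was 0.076 (95% interval -0.035 to 0.19, adjusted p = 0.304, limma; exact permutation p = 0.286), so a rise of more than 13.9% lay outside the interval. Pbx2 shares 227 exon bases, 6.24% of its exon length, with Gpsm3 on the same strand, so a part of its reads is uncertain. Gpsm3 itself had a log2 fold change of 0.33 (adjusted p = 2.91e-05, limma).

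**Figure D1:**
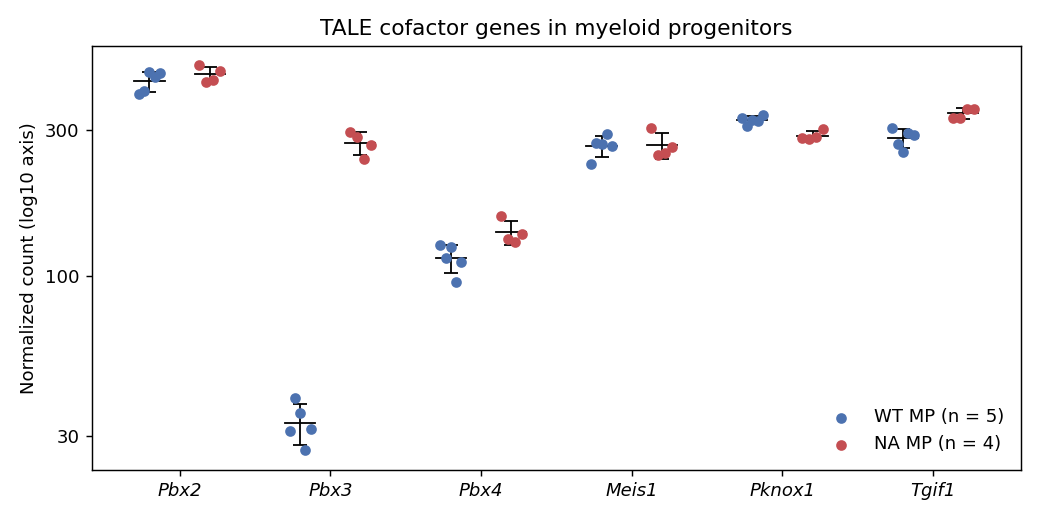
Normalized count (log10 axis) of the 6 expressed TALE genes in every sample, with blue points for WT MPs (n = 5) and red points for NA MPs (n = 4), and black lines for the mean and the SD. Pbx3 is the only gene whose groups lie far apart, at 242 to 297 against 27.0 to 40.2. Pbx4, Tgif1 and Pknox1 show narrow gaps, and Pbx2 and Meis1 overlap.

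Meis1 (ENSMUSG00000020160, chr11:18879817-19018985, minus strand) encodes a cofactor that binds Pbx and joins complexes of Pbx and Hox proteins on DNA. It had 306, 249, 253 and 265 normalized counts in NA MP replicates 1 to 4 and 232, 273, 270, 291 and 266 in WT MP replicates 1 to 5. The highest value was NA MP replicate 1 and the lowest was WT MP replicate 1, and the others were mixed. The means of 268 ± 26.2 (SD, n = 4) and 267 ± 21.5 (SD, n = 5) gave a log2 fold change of 0.0081 (95% interval -0.13 to 0.15, adjusted p = 0.945, limma; exact permutation p = 0.984). As a change in percent, the interval ran from -8.62% to 10.7%, and the rise of Pbx3 lies far outside it. Its sign turned without NA MP replicate 1 (-0.057), without WT MP replicate 1 (-0.041), with scaling by library size (-0.0065) and with sample weights (-0.017), none of which passed the test. Of the exon bases of Meis1, 18.3% overlap another gene and 17.0% of its 50-base pieces occur in other genes, so its level is less certain than that of Pbx3. Gm16140, which overlaps it on the opposite strand, had at most 1.65 normalized counts in any sample.

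Meis2 (ENSMUSG00000027210, chr2:115863064-116065839, minus strand) had 0 reads in all 9 samples. Meis3 (ENSMUSG00000041420, chr7:16175090-16186504, plus strand) had 3.60, 1.01, 0 and 0 normalized counts in NA MP replicates 1 to 4 and a single read each in WT MP replicates 3 and 4, with 0 in the other WT MPs. With 3 reads or fewer in every sample, no fold change is given. Meis1 was thus the Meis gene with measurable RNA in these cells.

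Pknox1 (ENSMUSG00000006705, chr17:31564734-31607693, plus strand) encodes Prep1, which competes with Meis proteins for Pbx. Its normalized counts were 282, 281, 286 and 303 in NA MP replicates 1 to 4 and 329, 311, 324, 321 and 335 in WT MP replicates 1 to 5. The groups did not overlap, with NA MPs below. The means were 288 ± 10.4 (SD, n = 4) and 324 ± 9.29 (SD, n = 5), and the log2 fold change was -0.17 (standard error 0.057, adjusted p = 0.0190, limma), with a 95% interval of the change from -17.9% to -3.61% (exact permutation p = 0.0159). Leaving out each sample in turn kept the adjusted p below the threshold of 0.05 in all 9 fits, though in the highest case only just. The adjusted p does not pass a threshold of 0.01, and the change does not pass a test against a 2-fold change. An unnamed gene model on the opposite strand, AC166172.4, shares 2.24% of the exon bases of Pknox1. Pknox2 (ENSMUSG00000035934, chr9:36890982-37147407, minus strand), its relative, had 0 reads in all 9 samples.

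Tgif1 (ENSMUSG00000047407, chr17:70844205-70853546, minus strand) encodes a repressor that acts with Smad proteins and on retinoid response. It had 330, 329, 353 and 352 normalized counts in NA MP replicates 1 to 4 and 304, 271, 255, 293 and 289 in WT MP replicates 1 to 5. All NA MP samples were above all WT MP samples. The means were 341 ± 13.4 (SD, n = 4) and 282 ± 19.6 (SD, n = 5), and the log2 fold change was 0.27 (standard error 0.060, adjusted p = 0.000379, limma), a rise of 20.7% with a 95% interval from 10.9% to 31.4% (exact permutation p = 0.0159). The call held without each sample in turn, with log2 fold changes from 0.24 to 0.30.

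**Figure D2:**
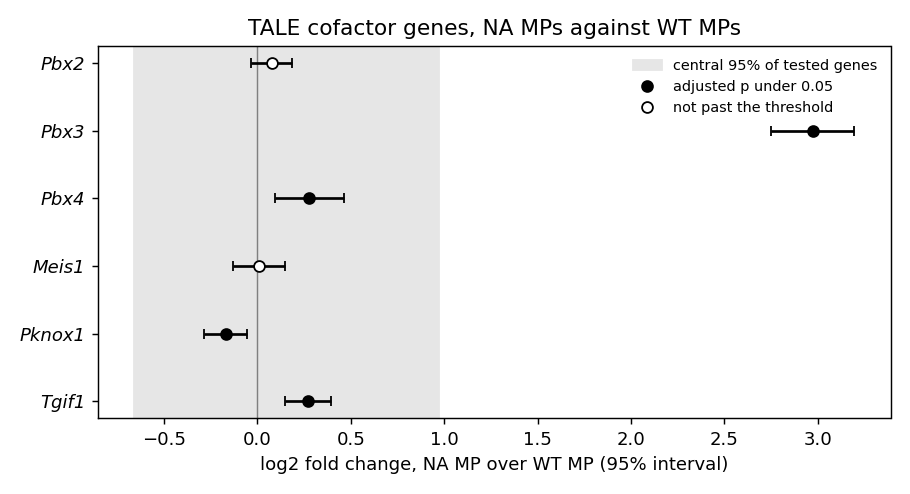
Log2 fold change of NA MPs over WT MPs (x axis) for the 6 tested TALE genes (y axis), with 95% intervals from limma; filled points passed an adjusted p of 0.05 and the grey band is the central 95% of all tested genes, -0.66 to 0.97. Pbx3 at 2.97 lies outside the band, and the other 5 genes, from -0.17 to 0.28, lie within it.

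Between genes, levels were compared as normalized counts per kilobase of exon (GENCODE M21, union of exons), without a test. In WT MPs Pbx2 was the highest at 119 ± 9.07 (SD, n = 5), and no other member came near it. Pbx4 (51.7 ± 5.44), Tgif1 (50.2 ± 3.48) and Pknox1 (46.7 ± 1.34) followed, each overlapping its neighbour in that order. Meis1 was at 25.3 ± 2.04, and Pbx3 was the lowest of the expressed members at 5.43 ± 0.82. Meis1 and Pbx3 each stood apart from their neighbours. Pbx3 was therefore the least abundant expressed TALE cofactor among these 9 genes in WT MPs, at 0.16 to 0.25 of the level of Meis1.

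In NA MPs, with these lengths, the order of the other members by mean level was the same, and Pbx3 was above Meis1 and Pknox1. Pbx2 was at 125 ± 7.50 (SD, n = 4), Pbx4 at 62.8 ± 5.67 and Tgif1 at 60.6 ± 2.38, the last pair overlapping. Pbx3 reached 44.7 ± 3.90 and overlapped Pknox1 at 41.6 ± 1.49, and Meis1 was the lowest at 25.5 ± 2.49, with no overlap. The ratio of the Pbx3 level to the Meis1 level in a sample was between 1.65 and 1.98 in NA MPs and between 0.16 and 0.25 in WT MPs. The ratio of Pbx3 to Pknox1 was between 0.96 and 1.19 against 0.095 to 0.15, so the pair was about level in NA MPs. With the length of the longest transcript in place of the union of exons, Pbx3 in NA MPs was at 95.5 and Pbx4 at 89.2, and Pbx3 stood at 1.26 to 1.56 of the level of Pknox1 and 2.53 to 3.03 of that of Meis1. The order of the other members also changed with these lengths. Tgif1 was then above Pbx4 by mean in both groups, and Pknox1 was at 76.2 beside Pbx4 at 73.5 in WT MPs but at 67.8 beside 89.2 in NA MPs. The order of the levels thus depends on the transcript lengths used, whereas the change of a gene between groups does not.

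Pbx3 made up 3.09% ± 0.49 (SD, n = 5) of the summed per-kilobase level of Pbx2, Pbx3 and Pbx4 in WT MPs and 19.2% ± 1.15 (SD, n = 4) in NA MPs. Pbx2 made up 67.6% ± 3.30 in WT MPs and 53.9% ± 1.30 in NA MPs. The share of Pbx4 was 29.4% ± 3.02 and 26.9% ± 0.67, with overlapping ranges of 25.4% to 33.4% in WT MPs and 26.5% to 27.9% in NA MPs. The sum of the 3 genes was 176 ± 9.13 in WT MPs and 233 ± 15.6 in NA MPs, with ranges of 169 to 190 and 218 to 254. Pbx3 remained below Pbx2 in every NA MP sample, at 0.33 to 0.40 of its level. With the longest transcript that ratio was 0.59 to 0.71, and the share of Pbx3 in the sum was 5.13% ± 0.78 in WT MPs and 28.6% ± 1.49 in NA MPs.

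**Figure D3:**
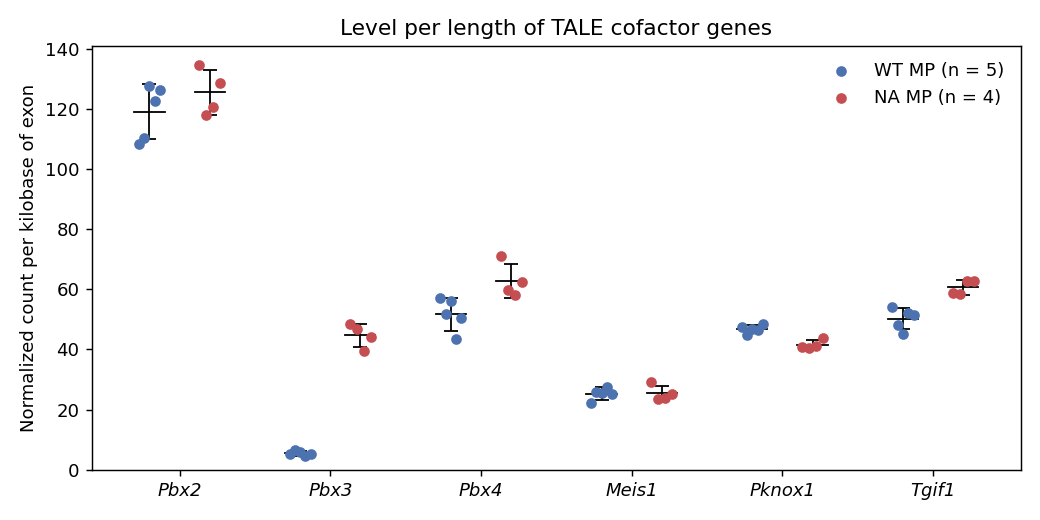
Level of the 6 expressed TALE genes in normalized counts per kilobase of exon (linear y axis from 0), in WT MPs (blue, n = 5) and NA MPs (red, n = 4), with mean and SD. Pbx2 is the highest in both groups at 119 and 125, and Pbx3 moves from 5.43, below Meis1, to 44.7, beside Pknox1.

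The Hox genes, whose proteins Pbx and Meis proteins accompany on DNA, were followed as a list. Of 39 Hox genes, 38 were in the table, 19 had any read and 14 were tested. Of these 14, 13 rose, all over 2-fold, beside 2.39% of all tested genes that rose over 2-fold. The 1 that fell over 2-fold was Hoxb2, with 6.17 ± 3.94 normalized counts in NA MPs (n = 4) and 13.7 ± 5.16 in WT MPs (n = 5), values that overlapped. Hoxb5, Hoxb6, Hoxb7 and Hoxb8 had at most 3.24 normalized counts in any WT MP and passed the filter only through NA MPs. Hoxa2, Hoxa10 and Hoxb3, with means of 7.31, 8.05 and 7.23 in WT MPs, also needed NA MPs to pass it. Such genes could enter only if high in NA MPs, so the count and the median are given as a description only. The median log2 fold change of the 14 genes was 2.28, beside -0.0081 for all tested genes. It stayed 2.28 with the genes at or under 3 reads in WT MPs set to their lower bounds. These bounds, the lowest 2.74 for Hoxb6, all lie above the median, so that check could not move it. Hoxa9, the Hox gene most tied to Meis1 and Pbx3 in leukaemia, had 660 ± 45.3 normalized counts in NA MPs and 161 ± 13.7 in WT MPs. Its log2 fold change was 2.02 ± 0.064 (standard error; adjusted p = 2.31e-28, limma). The summed normalized counts of the list were between 1727 and 1949 in NA MPs and between 428 and 473 in WT MPs. Pbx3 and most tested Hox genes therefore rose by several fold in the same samples, whereas Pbx2, Pbx4, Meis1, Pknox1 and Tgif1 had intervals that reached a 1.38-fold change at most.

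Proteins known to bind TALE proteins or to act with them were counted from a list of 18 genes, all tested. Of these, 3 rose, 4 fell and 11 did not pass, beside 34.3% of all tested genes called, so the count alone does not set these genes apart. Their median log2 fold change was -0.059. The one change over 2-fold was that of Myh10, the heavy chain of non-muscle myosin IIB, which is known to hold Pbx in the cytoplasm. Myh10 had 31.8 ± 5.14 normalized counts in NA MPs (n = 4) and 289 ± 17.1 in WT MPs (n = 5), with no overlap. Its log2 fold change was -3.12 with an adjusted p of 2.31e-28 (limma, standard error 0.098). Myh9, the heavy chain of non-muscle myosin IIA, had a log2 fold change of 0.046 (adjusted p = 0.173, limma). The 3 that rose were Pbxip1, which binds Pbx and hinders its binding to DNA (log2 fold change 0.34), Crbn, a substrate receptor of a ubiquitin ligase (0.20), and Zyx, a protein of focal adhesions (0.19). The other 3 that fell were the corepressor gene Ncor1 (-0.14), the acetyltransferase gene Ep300 (-0.14) and Mybbp1a (-0.11), whose protein binds Myb and Prep1.

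Of 14 genes described as downstream of Hox, Meis or Pbx proteins, 13 were tested, and 7 rose, 3 fell and 3 did not pass, beside 17.0% of all tested genes that were higher and 17.4% that were lower. None changed over 2-fold, and the median log2 fold change was 0.12. Sytl1, which encodes a synaptotagmin-like protein and is known as a target of Meis1 in leukaemia, had 114 ± 13.7 normalized counts in NA MPs and 68.5 ± 7.62 in WT MPs, and its log2 fold change was 0.71 with an adjusted p of 9.45e-07 (limma, standard error 0.11). Sox4, a transcription factor gene of leukaemia cells, had a log2 fold change of 0.62, and Flt3, a receptor tyrosine kinase gene of early progenitors, had 0.42. The others that rose were Cdkn2c (0.52), Erg (0.49), Msi2 (0.46) and Cd34 (0.12). Hif1a encodes a transcription factor of the response to low oxygen and is a target of Meis1 in stem cells. It had 365 ± 18.5 normalized counts in NA MPs and 500 ± 21.0 in WT MPs. Its log2 fold change was -0.45 with an adjusted p of 1.09e-09 (limma, standard error 0.051). Trib2, a target of Meis1 and a known leukaemia gene, fell by 0.22 on the log2 scale, and Myb, a progenitor transcription factor gene, fell by 0.095. Genes of this list thus moved in both directions.

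**Figure D4:**
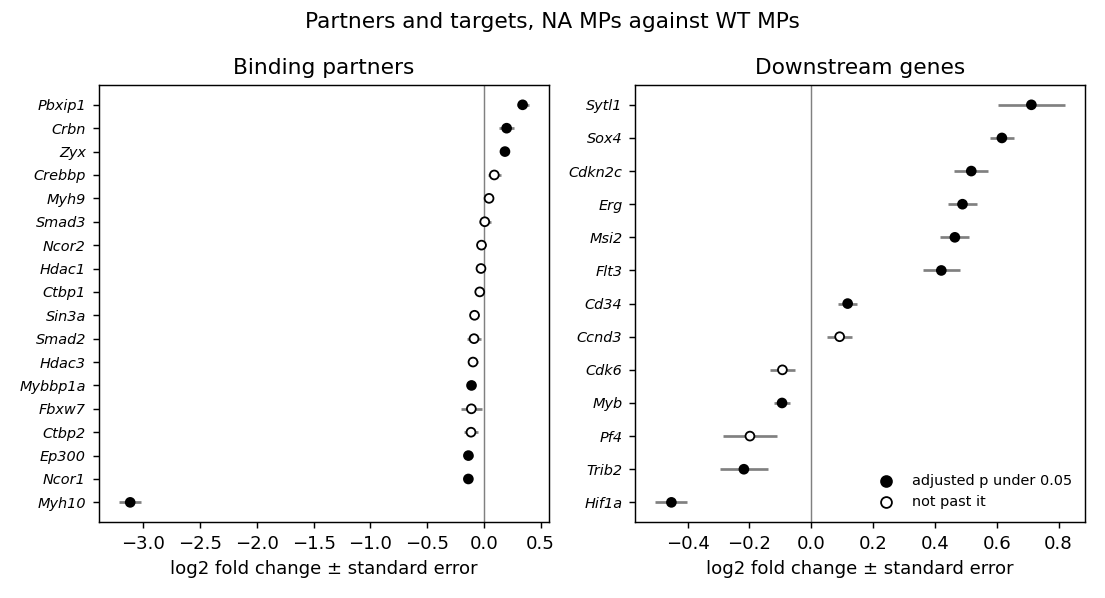
Log2 fold change of NA MPs over WT MPs (x axis, bars are standard errors) for the 18 tested genes of binding partners (left) and the 13 tested downstream genes (right), with filled points for an adjusted p under 0.05. Myh10 at -3.12 stands apart on the left, and on the right values run from -0.45 for Hif1a to 0.71 for Sytl1.

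The tested genes whose profile over the 9 samples was nearest to that of Pbx3, by Euclidean distance of log2(normalized count + 2) centred on each gene's mean, were Hoxb6 (distance 0.67), Il7r (0.76) and ENSMUSG00000081448 (0.78), an identifier with no name in the annotation used. Hoxb6 had 19.5 ± 4.94 normalized counts in NA MPs and was at or under 3 reads in WT MPs, at least 6.66-fold higher against 3 reads per library. Il7r, the receptor chain for interleukin 7 in lymphoid progenitors, had 47.2 ± 7.77 against 5.06 ± 0.998. ENSMUSG00000081448 had 17.0 ± 3.03 against 0.777 ± 0.443. All 3 genes were low in WT MPs and passed the filter only through NA MPs. The added 2 lowers the fold change of such genes, so their nearness to Pbx3 depends in part on it. Such a distance mostly follows the size of the difference between groups.

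Markers of other cells moved with the groups as well. The counts below stand beside 17.0% of all tested genes that were higher and 17.4% that were lower, and are given as a description only. All 12 markers of pro-B and pre-B cells on the list for these cells rose in NA MPs, 11 of them over 2-fold, beside 2.39% of all tested genes. Pax5 and Il7r, with at most 6.52 normalized counts in any WT MP, passed the filter only through NA MPs. Ebf1, at 7.94 to 16.0 in WT MPs with a mean of 10.6, also needed NA MPs to pass it. The summed level of the 12 markers was 1474, 2601, 2613 and 1967 normalized counts in NA MP replicates 1 to 4. In WT MPs it was between 386 and 421, and no marker of the list was at 0 in a group. Within NA MPs the highest sum was 1.77 times the lowest, and for Pbx3 that ratio was 1.23. NA MP replicate 1, which had the highest Pbx3, had the lowest sum of B-lineage markers and the highest sums of mast cell and basophil (4352), stem cell (689) and megakaryocyte (1784) markers among NA MPs. The same sample also had the highest Meis1 (306), Pbx2 (489), Pbx4 (157) and Hox sum (1949) of the NA MPs, but not the highest Pknox1 or Tgif1. It had the fewest reads of all samples, 5557720. It is a single sample, and what sets it apart was not tested. Of 11 tested erythroid markers 9 fell, with sums between 5062 and 6434 in NA MPs and between 9233 and 10290 in WT MPs. Markers of mast cells and basophils were between 3782 and 4352 against 2671 to 2934, with 6 of 8 higher and 1 lower. Those of stem cells were between 591 and 689 against 386 to 419, with 4 of 7 tested higher and 1 lower. Cma1 of the mast cell list (mean 7.55 in WT MPs) and Hoxb5 of the stem cell list (at most 3.24) likewise needed NA MPs to pass the filter. Sums of neutrophil markers overlapped, at 3636 to 5580 against 3194 to 3703, with 3 of 8 higher and 2 lower. Sums of megakaryocyte markers overlapped too, at 1532 to 1784 against 1549 to 1717, with 1 of 8 tested higher and 3 lower. Of 7 markers of T cells 1 was tested and rose, Lck, with 52.2 ± 7.81 against 11.0 ± 2.42 normalized counts. Cd3e and Cd3g had no read in any sample, and the other T cell markers were too low to test, so the sums of 48.0 to 67.0 against 14.3 to 22.4 differ mainly through Lck. The part of these cells in the changes of Pbx3, Pbx4, Pknox1 and Tgif1 was not tested.

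**Figure D5:**
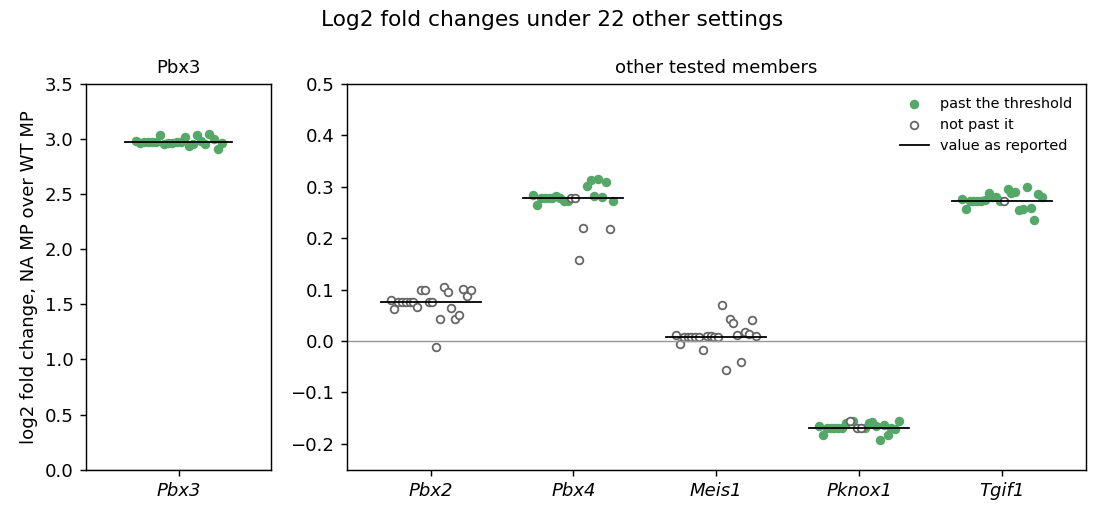
Log2 fold changes of the 6 tested TALE genes under 22 other settings of the analysis, left Pbx3 and right the others on a finer y axis; the black line is the reported value and filled points passed the threshold of that setting. Pbx3 stayed between 2.91 and 3.04 and passed in all 22, Tgif1 in all but the test against a 2-fold change, and Pbx4 and Pknox1 lost the call in 5 and 3 settings.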

How the data were processed

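RNA of myeloid progenitors was sequenced from 4 NA MP and 5 WT MP samples (TruSeq libraries, NextSeq 500). Per the labels and methods of the study, the authors used bcl2fastq, RSEM and DESeq2, with mm10 as the build, and versions, annotation and any use of strand in counting are not given in the sources used here. The table is named as raw RSEM counts. However, the deposited values, here treated as a signal and called normalized counts, were whole multiples of a step of 0.827 to 1.20 for 97.3% to 97.7% of values above 0 (tolerance 0.02 reads), and the steps matched median-of-ratios size factors of the recovered reads to within 0.17%. The authors thus deposited counts divided by size factors. A count test had been planned. It was replaced by limma 3.58.1 (R 4.3.3) on log2(value + 2), with trend and robust options, after a filter of at least 10 in 4 or more samples, Benjamini-Hochberg adjustment and a threshold of 0.05. Fold changes are on this scale and understate the change of low genes. On simulated data with known changes of 2-fold or more, most of the changes were recovered. Smaller changes, such as those of Pbx4, Pknox1 and Tgif1, were not simulated. Members were also compared singly by an exact permutation test, two-sided, over all ways to split the 9 samples into 4 and 5, and limits at 3 reads cover counting error only.

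All 9 columns matched a sample by title, and groups came from the labels. Names, coordinates, lengths and GC content came from GENCODE M21 (GRCm38), in which 32916 of 37980 identifiers had a symbol. The members and lists were chosen with earlier results of these data known. The genes named are all 9 members, binding partners and downstream genes past the threshold and over 2-fold, and the 3 genes nearest in profile to a member over 2-fold. Hox genes are given as counts and named only where a member is set beside them. Other list genes, Hoxb2 and Lck among them, were named after their values were seen. Alternatives were another scaling, filter, pseudocount, threshold, robust option or sample weights, a correction for GC content and length, the replicate number as a block, and leaving out each sample. Sample weights, the pseudocount of 0.5 in the whole fit and a filter of at least 10 in 2 samples were added after seeing the data.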

Additional observations from a re-analysis of the deposited data

Results flagged for a closer look

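In 26 groups of samples with any variation, the normalized counts of the members and 6 ratios between their levels per kilobase, a sample was looked for that lies far from the rest of its group, which chance gives in about 1 of 20 groups, or 1.3 here. It was found in 1 group, the ratio of Meis1 to Pknox1, which was 0.714 in NA MP replicate 1 and between 0.576 and 0.583 in the other NA MPs. WT MPs lay between 0.464 and 0.597. The same sample had the highest Meis1 value of all 9 samples, at 306 normalized counts.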

How the results depend on the processing

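Pbx3 kept its call under all 22 alternatives, at log2 fold changes from 2.91 to 3.04. The 4 calls among the members became 2 at an adjusted p of 0.01, where none was lower, and 1 against a 2-fold change, with 1 higher and 0 lower. Over all genes the test against a 2-fold change left 182 genes. Without 1 sample in turn, 3 to 4 members were called, 2 to 3 of them higher. Meis1 turned to -0.0065 with library size only, to -0.017 with sample weights and, without 1 sample in turn, ranged from -0.057 to 0.043 (negative without NA MP replicate 1 and, at -0.041, without WT MP replicate 1), and Pbx2 to -0.012 with the correction for GC content and length, where none of these values passed. The cause was not tested.

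Replicate numbers occur in both groups, but deviations from the group means of same-numbered samples correlated at only -0.016 to 0.055, so the numbers were not taken to pair samples. With the replicate number as a block, 3 members were called, 3 higher and 0 lower, since Pknox1 reached an adjusted p of 0.0606 (limma), beside 0.0494 without the block on the same 8 samples. The block gave 3675 called genes and the same samples without it 3690. No NA MP sample correlated best with the WT MP sample of its own number. Levels per kilobase over 9 samples moved to 35.4 for Meis1, 145 for Pbx2, 48.9 for Pbx3, 80.5 for Pbx4, 72.5 for Pknox1 and 98.1 for Tgif1 with the longest transcript. The planned count tools were not run. The deposited values were tested as a signal, and the reads read back with the step were not put into a count test. Reads from 5557720 to 8106140 a sample limit what can be said of Meis2, Meis3 and Pknox2.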
